A study of Saccharomyces cerevisiae with 8 samples.

Results

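The comparison described here was made in the PPN2-overexpressing yeast strain CRN/PPN2 and set growth in alkaline medium, CRN/PPN2 (+KOH), against growth in YPD. Its libraries were taken by their labels and were 4 of the 8 in the series, 2 per group, and 5430 of the 7127 genes in the count table were tested. All groups were Saccharomyces cerevisiae derived from CRN, a MATa ade2 his3 ura3 strain in which ppn1 is replaced by CgTRP1, so the polyphosphatase gene PPN1 was missing in the controls too. CRN/PPN2 additionally carried the centromeric plasmid pMB1 with the marker URA3 and with PPN2 between the constitutive TDH3 promoter and the PGK terminator. YPD is a rich glucose, peptone and yeast extract medium, and the alkaline medium was YPD with 20 mM KOH. All cultures were taken in late logarithmic phase, which was reached after 16 h in YPD and after 25 h by CRN/PPN2 (+KOH). The parent CRN was the reference strain, sequenced after 16 h in YPD and after 40 h with KOH. CRN/PPN2 (+KOH) cells, which lyse in distilled water, went straight into Trizol, whereas a French press opened the frozen cells of the other 3 groups. Medium, culture time and lysis therefore changed together in CRN/PPN2, and their parts in the results cannot be told apart. The 2 replicates of each group were 2 preparation and sequencing batches and are not stated to come from separate cultures. The p-values thus reflect only how far these libraries differ, which may be technical.

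Inorganic polyphosphate is a linear chain of phosphate residues that yeast stores mainly in the vacuole. It is made by the VTC complex of the vacuolar membrane and is cut by the phosphatases Ppn1, Ppn2, Ppx1 and Ddp1. An alkaline medium weakens the proton gradient across the plasma membrane, which drives most nutrient uptake, and lowers the solubility of phosphate, iron and copper. Yeast is known to answer through the Rim101 pathway, which senses external pH, through calcium and calcineurin, through the PHO pathway of phosphate starvation, through the glucose-repressible genes under Snf1 and through the iron and copper regulons.

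The CRN/PPN2 libraries with KOH were shallower than the rest. CRN/PPN2 (+KOH) held 1559324 and 796548 counts and CRN/PPN2 in YPD held 4756671 and 5004823, while the 4 CRN libraries held between 3844316 and 4791457. A single read was therefore worth 0.641 and 1.26 counts in every 1000000 (CPM) with KOH and at most 0.210 CPM in YPD. The CPM values below are scaled by TMM factors, and a level in CPM compares libraries for 1 gene, not genes of different length. The deletion of PPN1 showed in its counts, 0 and 0 in YPD and 1 and 0 with KOH. PPN2 stood at 6854 and 6468 CPM in YPD and 5997 and 6135 CPM with KOH (log2 fold change -0.13 ± 0.13 SE, adjusted p = 0.413), so its level moved by less than the test could separate. The plasmid marker URA3 fell from 1894 and 1729.8 to 1212 and 1155 CPM (log2 fold change -0.61 ± 0.13 SE, adjusted p = 0.000905). CRN in YPD, without the plasmid, also had 1035 and 1236 URA3 counts, so the CRN/PPN2 values may include the chromosomal ura3 allele. The native TRP1 gene (YDR007W), which is not the CgTRP1 cassette, rose from 13.5 and 14.1 to 67.7 and 66.4 CPM (log2 fold change 2.26 ± 0.20 SE, adjusted p = 3.88e-08).

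The CRN/PPN2 (+KOH) libraries also stood apart in RNA makeup. Transfer RNA genes took 111 and 115 CPM in them against 15.6 to 24.6 CPM in the other 6 libraries, and the 50 most abundant genes took 18.95% and 17.7% of counts against 20.3% to 23.1%. Their log2 levels of genes with a coding length of up to 300 bases lay above the mean of all libraries, by a median of 0.67 and 0.32, whereas the other 6 libraries lay between -0.25 and -0.09. The median SD between replicates on the log2(CPM + 2) scale was 0.19 in CRN/PPN2 (+KOH) and 0.14 in CRN/PPN2 YPD.

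Most tested genes passed the test. A gene was called when its adjusted p in edgeR's quasi-likelihood test was below 0.05 (5% FDR), and 2972 genes (54.7% of those tested) were called, 1586 higher with KOH (29.2%) and 1386 lower (25.5%). The rises reached further than the falls: 709 genes (13.1%) rose by a log2 fold change of 1 or more and 250 (4.6%) fell by as much. At a log2 fold change of 4 or more there were 33 rises and 0 falls, against a largest fall of -3.61. Part of this asymmetry came with the filter on low counts, because 196 genes passed it only through the CRN/PPN2 (+KOH) libraries and 176 of these were called higher. Of the other 5234 genes, 1410 were called higher and 1386 lower, and 542 and 250 of these passed a log2 fold change of 1 in size. The median over all tested genes was -0.01. In gene lists tested with this filter, counts of rises and falls are to be set against the 29.2% and 25.5% of all genes. The 2 YPD values and the 2 KOH values of a gene did not overlap in 3792 genes (69.8%), of which 2888 were called.

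**Figure D1:**
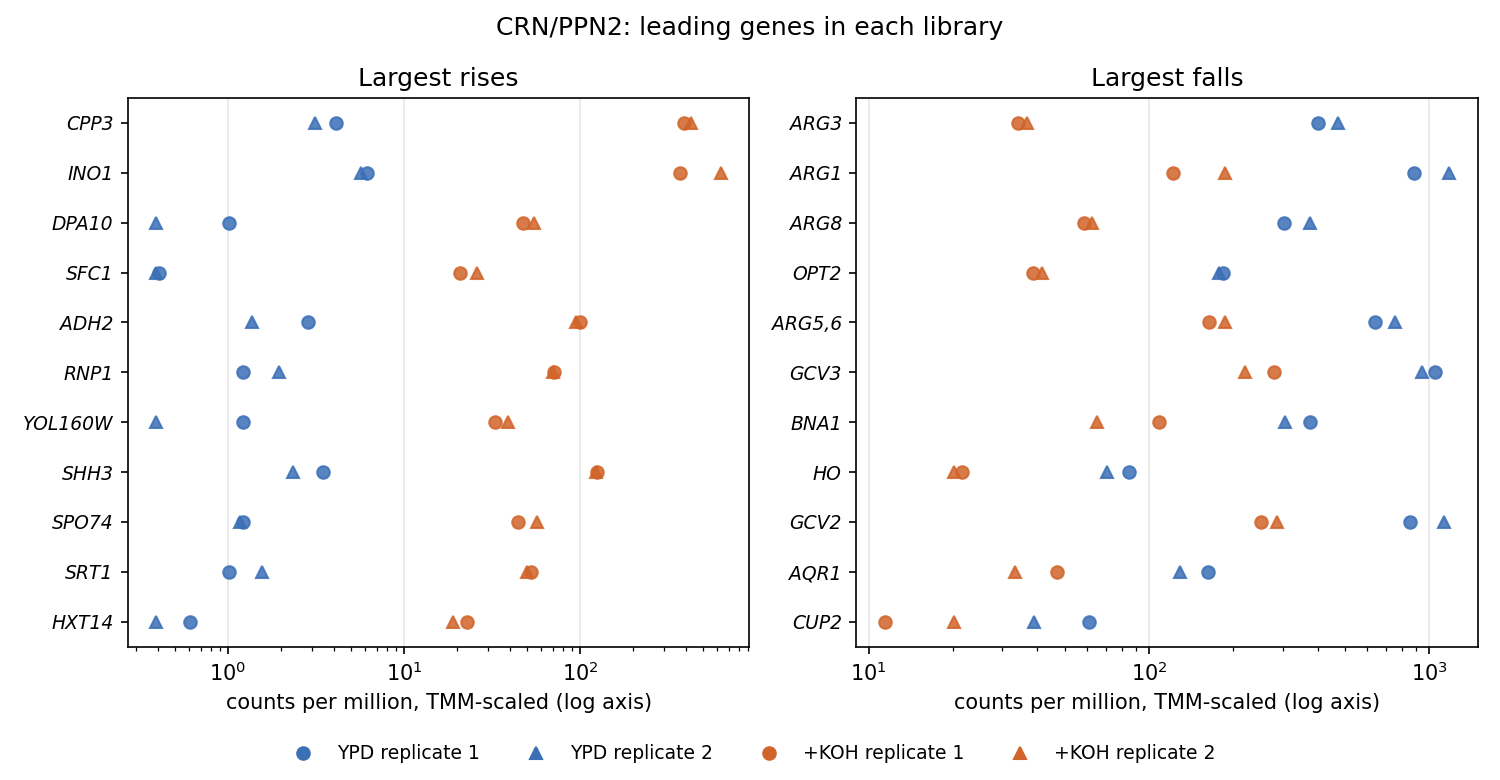
Level of genes among the 12 largest rises (left) and the 12 largest falls (right) in each of the 4 CRN/PPN2 libraries, in TMM-scaled CPM on a log axis. Blue marks YPD and orange KOH, circles are replicate 1 and triangles replicate 2. OSW1, with 0 counts in 1 YPD library, is left out. The YPD and KOH values do not overlap for any gene drawn, which the choice of the largest called changes favours (69.8% of all tested genes did not overlap). The replicates of ARG3 with KOH lie at 34.2 and 36.8 CPM against 401 and 472 CPM in YPD.

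The largest rise was that of CPP3 (YDR034W-B), which encodes a small cysteine-rich membrane protein of the CYSTM family. It stood at 4.09 and 3.14 CPM in YPD and 386 and 423 CPM with KOH (log2 fold change 6.79 ± 0.19 SE, adjusted p = 2.66e-14). INO1, the inositol-3-phosphate synthase and rate-limiting enzyme of inositol synthesis, stood at 6.13 and 5.69 CPM in YPD and 368 and 628 CPM with KOH (log2 fold change 6.36 ± 0.21 SE, adjusted p = 7.65e-14). Genes without an established role were also among the leading rises. YOL160W stood at 1.23 and 0.392 CPM in YPD and 32.9 and 39.1 CPM with KOH (log2 fold change 5.40 ± 0.39 SE, adjusted p = 3.24e-09). ECM8 stood at 3.27 and 3.14 CPM in YPD and 106 and 113 CPM with KOH (log2 fold change 5.08 ± 0.26 SE, adjusted p = 4.41e-11). YOL160W and ECM8 passed the filter on low counts only through the CRN/PPN2 (+KOH) libraries. The neighbouring genes YCR099C and EMA35 (YCR100C) near the right end of chromosome III stood at 18.6 and 14.3 and at 23.3 and 18.8 CPM in YPD and rose to 559.9 and 615 and to 584 and 791 CPM (log2 fold change 5.15 ± 0.15 and 5.02 ± 0.18 SE, adjusted p = 4.52e-14 and 2.96e-13). Their annotated coding sequences overlap, so reads in the shared bases cannot be assigned to either gene with certainty.

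Other large rises came from genes that YPD cultures barely used. SFC1, the mitochondrial succinate-fumarate carrier, had 2 and 2 counts in YPD and stood at 20.9 and 26.1 CPM with KOH (log2 fold change 5.77 ± 0.49 SE, adjusted p = 2.88e-08). ADH2, the glucose-repressed alcohol dehydrogenase that oxidises ethanol, rose from 2.86 and 1.37 to 99.3 and 94.9 CPM (log2 fold change 5.52 ± 0.28 SE, adjusted p = 4.41e-11). HXT14, a member of the hexose transporter family, had 3 and 2 counts in YPD and 22.8 and 19 CPM with KOH. SFC1 and HXT14 passed the filter on low counts only through the CRN/PPN2 (+KOH) libraries. The counting error of such genes is wide: the ratio of KOH to YPD over the summed counts was 56.7 for SFC1 (95% interval 20.9 to 215), 43.8 for YOL160W (21.2 to 105) and 42.9 for HXT14 (17.2 to 138), intervals that cover counting error only. Among genes well expressed with KOH, YNR065C, which resembles the vacuolar sorting receptor Vps10, rose from 88.7 and 86.1 to 2285 and 2919 CPM (log2 fold change 4.89 ± 0.16 SE, adjusted p = 7.65e-14), but 29.4% of its 31-base windows recur elsewhere in the genome and its counts may be shared with its relatives. YGR153W, of unknown function, stood at 20.4 and 16.7 CPM in YPD and 433 and 419 CPM with KOH (log2 fold change 4.52 ± 0.15 SE, adjusted p = 7.65e-14), and BNR1, a formin that nucleates actin cables, at 43.5 and 45.5 CPM in YPD and 396 and 360.5 CPM with KOH (log2 fold change 3.09 ± 0.13 SE, adjusted p = 2.74e-12).

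The remaining leading rises, RNP1, SHH3, SRT1 and DPA10, also started from few reads. They passed the filter only through the CRN/PPN2 (+KOH) libraries, which favours a rise. RNP1, which resembles RNA-binding proteins, stood at 1.23 and 1.96 CPM in YPD and 70.9 and 70.0 CPM with KOH (log2 fold change 5.43 ± 0.28 SE, adjusted p = 4.62e-11), and SHH3, a relative of the succinate dehydrogenase anchor Sdh3, at 3.47 and 2.35 CPM in YPD and 124 and 123 CPM with KOH (log2 fold change 5.39 ± 0.23 SE, adjusted p = 2.99e-12). SRT1, a prenyltransferase of long-chain dolichol synthesis known from spores, stood at 1.02 and 1.57 CPM in YPD and 52.5 and 49.8 CPM with KOH (log2 fold change 5.29 ± 0.31 SE, adjusted p = 2.32e-10). DPA10 had 5 and 2 counts in YPD and 47.4 and 54.5 CPM with KOH, a ratio of 71.2 with a counting interval of 33.5 to 181. Among the leading falls outside amino acid synthesis, BNA1, of NAD synthesis from tryptophan, fell from 377 and 305 to 108 and 65.2 CPM (log2 fold change -1.93 ± 0.17 SE, adjusted p = 3.05e-08), and AQR1, a plasma membrane exporter, from 162 and 129 to 46.8 and 33.2 CPM (log2 fold change -1.83 ± 0.17 SE, adjusted p = 6.53e-08). In every one of the genes in this paragraph the YPD and KOH libraries did not overlap. Their choice as the largest called changes favours this, and 69.8% of all tested genes did not overlap.

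Genes of spore formation were mostly higher with KOH. All 40 could be tested without the filter on low counts, and 31 of them were then called higher and 0 lower, with a median log2 fold change of 2.06. Without that filter 48% of all genes tested were called, and 49.1% of those calls were higher. Gene lists counted without the filter, here and below, are to be set against these shares. With the filter, 33 of the 40 spore formation genes remained and 28 rose (84.8% against 29.2% of all genes), but 17 of these 33 had passed only through the KOH libraries. Of the other 16, 11 rose and 0 fell, against 1410 and 1386 of all 5234 such genes. When genes were instead admitted by their level in the CRN libraries, 14 members remained, 9 rose and 0 fell, with a median of 1.07. These libraries lie outside the comparison but include CRN (+KOH), so genes that KOH raises in CRN could enter through them. They also enter the shared estimate of the spread. This CRN filter, chosen after seeing the data, called 28.7% of all genes higher. SPO74, a component of the meiotic spindle pole body, stood at 1.23 and 1.18 CPM in YPD and 44.3 and 56.9 CPM with KOH (log2 fold change 5.32 ± 0.36 SE, adjusted p = 1.39e-09). PES4, an RNA-binding protein of mid-sporulation, stood at 5.11 and 6.08 CPM in YPD and 55 and 56.9 CPM with KOH (log2 fold change 3.31 ± 0.24 SE, adjusted p = 3.74e-09), and SPO1, a phospholipase-like protein of meiosis, at 20.8 and 20.6 CPM in YPD and 106 and 108 CPM with KOH (log2 fold change 2.36 ± 0.16 SE, adjusted p = 1.82e-09). LOH1 rose from 4.7 and 4.32 to 136 and 115 CPM (log2 fold change 4.79 ± 0.21 SE, adjusted p = 6.06e-12). OSW1, a protein of the outer spore wall, had 3 and 0 counts in YPD and 35.4 and 35.6 CPM with KOH, a ratio of 118 with a counting interval of 39.1 to 584. In each of these genes, chosen by adjusted p or size of rise, both KOH libraries lay above both YPD libraries. Such a choice favours separation, and the groups did not overlap in 69.8% of all tested genes. In these bulk cultures a rise in a share of the cells cannot be told apart from a rise in each cell.

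The meiotic genes proper act in entry, chromosome pairing and recombination. Without the filter 21 of 36 were called higher and 2 lower, with a median of 1.66. With it, 18 of 23 rose and 1 fell, and of the 12 members that did not depend on the KOH libraries to pass the filter 7 rose. Admitted by the CRN libraries, 10 remained, of which 6 rose and 1 fell, with a median of 0.56. REC8, the meiotic cohesin subunit, stood at 4.49 and 3.34 CPM in YPD and 43 and 45.1 CPM with KOH (log2 fold change 3.49 ± 0.28 SE, adjusted p = 1.31e-08). SPO22, a protein of meiotic crossover formation, stood at 6.54 and 5.1 CPM in YPD and 37.3 and 47.4 CPM with KOH (log2 fold change 2.81 ± 0.27 SE, adjusted p = 1.17e-07), and HOP1, a component of the chromosome axis, at 12.5 and 11.8 CPM in YPD and 41.1 and 74.7 CPM with KOH (log2 fold change 2.18 ± 0.24 SE, adjusted p = 8.04e-07). Cells of a single mating type, as these MATa cells are, normally do not enter meiosis. MCK1, a kinase that also acts in mitotic growth, was the exception and fell from 188 and 215 to 74.7 and 78.3 CPM (log2 fold change -1.39 ± 0.15 SE, adjusted p = 4.45e-07).

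In wild type cells, most meiotic genes are held down through the element URS1, bound by Ume6, and the middle sporulation genes are switched on through the middle sporulation element (MSE), bound by Ndt80. Such sites are shown for members named above that held them, because they are the elements these groups are known for. They are written 5′ to 3′ on the strand of the gene from the RefSeq genome R64, with the motif or its reverse complement in capitals. The MSE was searched as GNCACAAAA on both strands from 500 to 50 bases before the coding start, and 15 of the 40 sporulation genes held it (37.5%) against 122 of 5327 tested genes (2.29%). The windows of SPO1, LOH1 and OSW1 held none. URS1 was searched as GGCGGC, and 20 of the 36 meiotic genes held it (55.6%) against 467 of 5327 (8.77%). The window of MCK1 held none. The MSE of SPO74 lies at chrVII:185498-185524, strand -, 113 bases before its start, and that of PES4 at chrVI:199634-199660, strand +, 223 bases before its start.
SPO74: aatgttctcTTTTGTGTCacaagaaat
PES4: aatagttgtTTTTGTGTCgtaccgaag
The URS1 of REC8 lies at chrXVI:571548-571571, strand -, that of SPO22 at chrIX:226064-226087, strand - and that of HOP1 at chrIX:226422-226445, strand +. SPO22 and HOP1 are divergent neighbours.
REC8: cttgacttcGGCGGCaaaccaata
SPO22: acaaacttcGGCGGCtaattgcaa
HOP1: tttaacctgGGCGGCtaaattgta

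Genes that glucose represses rose in larger number than the average gene. Of the 26 tested, 15 rose (57.7%) and 4 fell, with a median of 0.71. Without the filter 18 of 33 rose and 5 fell, and admitted by the CRN libraries 11 of 21 rose and 4 fell. Besides ADH2 and SFC1, IDP2, the cytosolic isocitrate dehydrogenase, rose from 17.2 and 17.3 to 65.2 and 96 CPM (log2 fold change 2.19 ± 0.19 SE, adjusted p = 4.26e-08), and SIP4, an activator of gluconeogenic genes, from 6.13 and 5.89 to 33.5 and 65.2 CPM (log2 fold change 2.94 ± 0.32 SE, adjusted p = 5.59e-07). GLK1, the glucokinase counted in the same list, fell (-1.07 ± 0.13 SE on the log2 scale, adjusted p = 1.86e-06). In the peroxisome, POT1, the thiolase of fatty acid β-oxidation, stood at 1.84 and 2.16 CPM in YPD and 39.2 and 67.6 CPM with KOH (log2 fold change 4.69 ± 0.29 SE, adjusted p = 4.16e-10). POX1, the acyl-CoA oxidase that opens the same pathway, stood at 3.06 and 2.35 CPM in YPD and 19.6 and 24.9 CPM with KOH (log2 fold change 2.97 ± 0.35 SE, adjusted p = 1.5e-06). Of the 22 peroxisomal genes, 12 rose and 4 fell, with a median of 0.64, but 3 of them passed the filter only through the KOH libraries and 9 of the other 19 rose. Admitted by the CRN libraries, 9 of 18 rose and 3 fell, with a median of 0.45. The falls numbered 2 without YPD replicate 1 and 1 without KOH replicate 1. CIT2, the peroxisomal citrate synthase, was among those that fell (-1.06 ± 0.14 SE, adjusted p = 8.14e-06).

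Stress genes were called higher more often than lower. Of 40 targets of the general stress factors Msn2 and Msn4, 23 rose (57.5%) and 7 fell (3 without YPD replicate 2), with a median of 0.49, and admitted by the CRN libraries 18 of 34 rose and 7 fell. HSP12, a small membrane-stabilising stress protein, stood at 874 and 663 CPM in YPD and 4989.6 and 4037 CPM with KOH (log2 fold change 2.56 ± 0.15 SE, adjusted p = 2.88e-10). RTN2, a reticulon of the endoplasmic reticulum, rose from 35.3 and 38.7 to 192 and 242 CPM (log2 fold change 2.54 ± 0.14 SE, adjusted p = 1.5e-10), and ALD2, a cytosolic aldehyde dehydrogenase, from 22.5 and 25.7 to 98.7 and 124 CPM (log2 fold change 2.20 ± 0.17 SE, adjusted p = 6.26e-09). Of 21 tested genes first described in stationary phase, 17 rose and 1 fell, with a median of 1.05, and admitted by the CRN libraries 11 of 14 rose and 1 fell, with a median of 0.86. Of the 21, 8 are short, with up to 500 coding bases, and with a correction for coding length, described below, 14 rose and the median was 0.70. They included SPG4 at 8.17 and 5.3 CPM in YPD and 101 and 116 CPM with KOH and RIM15, the kinase of entry into quiescence, at 67.6 and 93.4 CPM in YPD and 287 and 325 CPM with KOH (log2 fold change 3.99 ± 0.22 and 1.93 ± 0.14 SE, adjusted p = 1.31e-10 and 2.92e-09). The exception was MRH1, a plasma membrane protein, which fell from 1671 and 1574 to 796 and 632 CPM (log2 fold change -1.19 ± 0.14 SE, adjusted p = 1.23e-06).

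Storage carbohydrate genes changed in both directions, with 47.6% called higher and 28.6% lower, against 29.2% and 25.5% of all genes. GPH1, the glycogen phosphorylase, stood at 382 and 412 CPM in YPD and 1003 and 1637 CPM with KOH (log2 fold change 1.71 ± 0.17 SE, adjusted p = 1.68e-07). NTH1, the neutral trehalase, stood at 146 and 194 CPM in YPD and 320.1 and 371 CPM with KOH (log2 fold change 1.03 ± 0.12 SE, adjusted p = 1.5e-06), and UGP1, which makes the UDP-glucose that synthesis uses, fell from 369.6 and 457 to 170.2 and 199 CPM (log2 fold change -1.16 ± 0.14 SE, adjusted p = 2.57e-06). Over the 21 genes of the group, 10 rose (6 without YPD replicate 1) and 6 fell, with a median of 0.36. Among the 42 autophagy genes 22 rose and 2 fell, with a median of 0.38, and the count of rises depended on single libraries: it was 12 and 13 without YPD replicate 1 or 2 and 14 without KOH replicate 2 (with 5 falls). With all libraries, 52.4% of the autophagy genes were called higher and 4.76% lower. ATG8, the ubiquitin-like protein that coats the growing autophagosome, stood at 41.3 and 38.1 CPM in YPD and 161 and 147 CPM with KOH (log2 fold change 1.96 ± 0.15 SE, adjusted p = 4.92e-09). In the vacuole lumen 6 of 16 hydrolase genes rose (37.5%, and 3 without YPD replicate 1) and 4 fell. PBI2, an inhibitor of the vacuolar protease B with 228 coding bases, rose (1.12 ± 0.13 SE, adjusted p = 8.7e-07, and 0.45 with the length correction), and the aminopeptidase gene APE1 fell (-1.12 ± 0.14 SE, adjusted p = 2.61e-06).

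Cell wall genes changed in both directions. Of 50 genes of wall synthesis and structure, 21 rose (42%) and 16 fell (32%), with a median of 0.23. GSC2, the stress-inducible catalytic subunit of β-1,3-glucan synthase, stood at 404 and 431 CPM in YPD and 1643 and 2324 CPM with KOH (log2 fold change 2.23 ± 0.15 SE, adjusted p = 9.27e-10). CRH1, a transglycosylase that links chitin to glucan, stood at 274 and 396 CPM in YPD and 1133 and 1533 CPM with KOH (log2 fold change 2.00 ± 0.14 SE, adjusted p = 1.96e-09), and PIR3, a wall protein linked through glutamine, at 21.5 and 38.7 CPM in YPD and 247 and 295 CPM with KOH (log2 fold change 3.21 ± 0.15 SE, adjusted p = 1.78e-11). The yapsin gene YPS3 and the exoglucanase gene EXG2 rose by 2.72 ± 0.16 and 1.89 ± 0.13 SE on the log2 scale (adjusted p = 1.95e-10 and 2.3e-09). In the cell integrity pathway, which senses wall damage, 9 of 23 genes rose (39.1%) and 3 fell (1 without YPD replicate 1). They included the phosphatase PTP2 at 40.5 and 53.2 CPM in YPD and 162 and 256 CPM with KOH (log2 fold change 2.12 ± 0.16 SE, adjusted p = 7.89e-09) and the sensor WSC3 at 16.5 and 16.9 CPM in YPD and 43.7 and 52.2 CPM with KOH (log2 fold change 1.50 ± 0.20 SE, adjusted p = 6.61e-06). Of 20 genes of calcium transport and calcineurin signalling, 7 rose (35%, near the 29.2% of all genes) and 2 fell (10%), with a median of 0.25, and the falls numbered 0 without YPD replicate 2 and 1 without any other CRN/PPN2 library. Outside GSC2, which is also a calcineurin target, the most firmly called was GYP7, a GTPase activator for Ypt7 (1.42 ± 0.13 SE, adjusted p = 6.79e-08). The folding genes counted next include genes of the unfolded protein response, among them INO1, which is counted again under phospholipid synthesis. In the endoplasmic reticulum 10 of 25 folding genes rose (40%) and 0 fell (1 without YPD replicate 2), among them EUG1, a disulfide isomerase (0.95 ± 0.13 SE, adjusted p = 1.02e-05).

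Flocculin and COS genes, which lie mostly near the telomeres, were called higher more often than lower. FLO1, the main flocculin, stood at 1.43 and 2.16 CPM in YPD and 32.3 and 47.4 CPM with KOH (log2 fold change 4.44 ± 0.30 SE, adjusted p = 1.72e-09), FLO5 at 22.1 and 19.8 CPM in YPD and 60.7 and 86.6 CPM with KOH (log2 fold change 1.77 ± 0.21 SE, adjusted p = 1.78e-06) and FLO9 at 8.79 and 9.61 CPM in YPD and 25.9 and 22.5 CPM with KOH (log2 fold change 1.43 ± 0.27 SE, adjusted p = 0.000211). Shares of 64.6% and 56.2% of the 31-base windows of FLO1 and FLO5 recur in the genome, so these counts may be split among the family. FLO11, the adhesin of invasive growth, stood at 2.66 and 4.91 CPM in YPD and 1.9 and 5.93 CPM with KOH and was not called (log2 fold change -0.12 ± 0.55 SE, adjusted p = 0.864). Of the 12 flocculins and their regulators 7 rose and 1 fell, and admitted by the CRN libraries 4 of 9 rose and 1 fell. In the COS family of endosomal sorting proteins 8 of 9 tested genes were called higher and 0 lower, although only 5 were called after leaving out YPD replicate 2 or either KOH library. COS6 stood at 185 and 155 CPM in YPD and 385 and 486 CPM with KOH (log2 fold change 1.34 ± 0.14 SE, adjusted p = 3.66e-07). Genes were also compared by position, admitting them by the CRN libraries. Of the 91 genes within 20 kb of a chromosome end 48.4% were called higher and 20.9% lower (28.7% and 24.3% of all genes), with a median of 0.43. The medians of all bins farther in lay between -0.02 and 0.02, and in CRN the genes within 20 kb had a median of -0.12. With the filter over all 8 libraries the median within 20 kb was 0.71 over 114 genes.

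**Figure D2:**
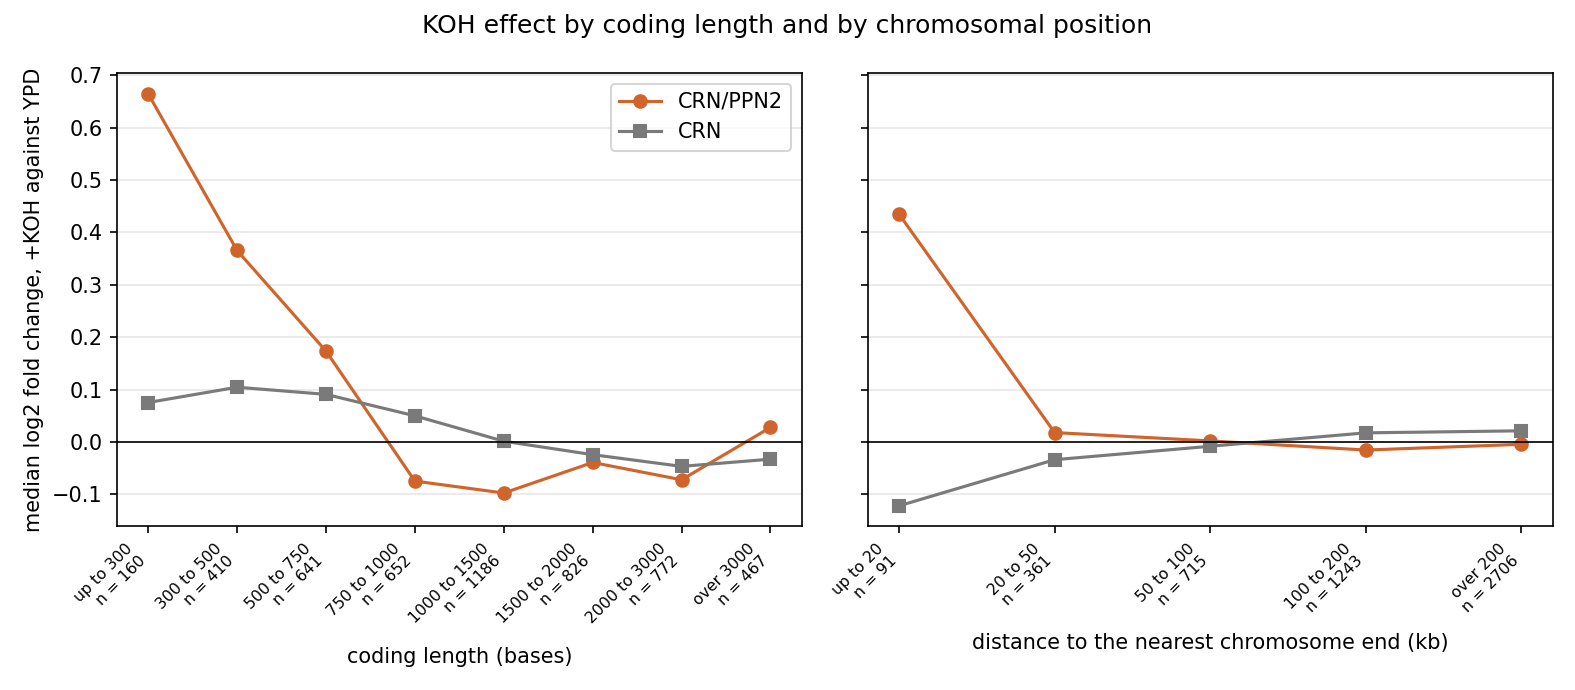
Median log2 fold change of KOH against YPD over genes binned by coding length in bases (left) and by distance to the nearest chromosome end in kb (right), with the number of genes in each bin, for genes admitted by their level in the CRN libraries. Orange circles are CRN/PPN2 and grey squares CRN. In CRN/PPN2 the 160 genes with up to 300 bases had a median of 0.66 and the 91 genes within 20 kb of an end a median of 0.43, while CRN stayed between -0.12 and 0.10 in all bins.

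Coding length, GC content and level also moved with the result. Spearman's rho with the log2 fold change, across 5327 genes of the same libraries, was -0.12 for coding length and -0.19 for the GC content of the coding sequence (-0.17 and -0.13 in CRN). The median fell from 1.33 in the 156 genes with a mean of up to 10 CPM over all 8 libraries, a mean that the KOH libraries enter, to -0.31 in the 465 genes with 300 to 1000 CPM. The filter favours a high median in the low bin, because 196 genes passed it only through the CRN/PPN2 (+KOH) libraries. The median of 1.33 is therefore not read as a result about low genes. Among genes admitted by the CRN libraries the median log2 fold change was 0.66 for the 160 genes of up to 300 bases, 62.5% of which were called higher, 0.37 for the 410 genes of 300 to 500 bases, 0.17 for 500 to 750 bases and between -0.10 and 0.03 in the longer bins. The CRN medians lay between -0.05 and 0.10. The excess and the high level of short genes in both CRN/PPN2 (+KOH) libraries given above come from the same values and are not separate observations. The part of direct lysis and depth in the excess was not tested. Values after a correction for coding length, chosen after seeing the data, are therefore given beside the groups of short genes below.

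Genes of proton transport changed in both directions. PMA1, the abundant plasma membrane H+-ATPase, stood at 3038 and 3659 CPM in YPD and 1760.0 and 2134 CPM with KOH (log2 fold change -0.78 ± 0.14 SE, adjusted p = 0.000127). Its minor isoform PMA2 stood at 5.52 and 13.3 CPM in YPD and 20.9 and 21.3 CPM with KOH (log2 fold change 1.26 ± 0.32 SE, adjusted p = 0.00308), a call that was lost without KOH replicate 1 (0.84, adjusted p = 0.136) or YPD replicate 1 (0.80, adjusted p = 0.0759). PMA2 also passed the filter on low counts only through the CRN/PPN2 (+KOH) libraries. HSP30, a stress protein that restrains Pma1, rose from 18.2 and 14.1 to 330.2 and 438 CPM (log2 fold change 4.55 ± 0.17 SE, adjusted p = 7.31e-13). For the V-ATPase, which acidifies the vacuole, 7 of 22 genes rose (31.8%, near the 29.2% of all genes) and 8 fell (36.4% against 25.5%), with a median of -0.13, the falls numbered 4 without either YPD library, and with the length correction 4 rose and 11 fell. VMA5 and VMA13, subunits of its catalytic sector, fell from 639 and 629 to 273 and 299 CPM and from 462 and 503 to 255 and 282 CPM (log2 fold change -1.15 ± 0.14 and -0.84 ± 0.13 SE, adjusted p = 1.6e-06 and 2.66e-05). VMA22, an assembly factor, rose from 80.7 and 75 to 221 and 207 CPM (log2 fold change 1.45 ± 0.13 SE, adjusted p = 5.04e-08). VPH1, the vacuolar isoform of the membrane sector, stood at 829 and 807 CPM in YPD and 579 and 649 CPM with KOH (log2 fold change -0.42 ± 0.14 SE, adjusted p = 0.0178), and its call was lost without KOH replicate 1 or either YPD library (adjusted p between 0.0898 and 0.101).

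Of 18 tested genes of potassium and sodium transport 9 rose and 2 fell (1 without KOH replicate 2 or either YPD library), with a median of 0.39. With all libraries, 50% of these genes were called higher and 11.1% lower, against 29.2% and 25.5% of all genes. TRK1, the high-affinity potassium transporter, stood at 145 and 145 CPM in YPD and 385 and 430.4 CPM with KOH (log2 fold change 1.48 ± 0.12 SE, adjusted p = 1.58e-08), and PPZ1, a phosphatase that restrains it, at 178 and 170.3 CPM in YPD and 339 and 397 CPM with KOH (log2 fold change 1.07 ± 0.13 SE, adjusted p = 2.21e-06). In the Rim101 pathway 5 of 10 genes were called higher and 2 lower (0 without YPD replicate 2 or KOH replicate 1, 1 without KOH replicate 2). RIM21, the pH sensor of the plasma membrane, stood at 104 and 84.4 CPM in YPD and 248 and 258 CPM with KOH (log2 fold change 1.42 ± 0.14 SE, adjusted p = 1.25e-07), while the factor RIM101 itself stood at 73.8 and 88.5 CPM in YPD and 51.2 and 62.8 CPM with KOH (log2 fold change -0.52 ± 0.17 SE, adjusted p = 0.0163), a call lost without KOH replicate 1 (adjusted p = 0.126) or YPD replicate 2 (0.0861). NRG1, a repressor that Rim101 is known to hold down, rose from 29.8 and 28.5 to 81 and 65.2 CPM (log2 fold change 1.33 ± 0.17 SE, adjusted p = 5.16e-06). Among the other 4 genes of the CYSTM family no rise was stable. CPP1 fell from 33.7 and 47.1 to 16.4 and 15.4 CPM (log2 fold change -1.27 ± 0.23 SE, adjusted p = 0.000195), and YDL012C stood at 37.2 and 39.2 CPM in YPD and 31 and 21.3 CPM with KOH (log2 fold change -0.46 ± 0.22 SE, adjusted p = 0.0837). CPP2 and MNC1 stood at 91.1 and 72 CPM in YPD and 139.8 and 88.9 CPM with KOH and at 23.5 and 14.9 CPM in YPD and 43.7 and 29.6 CPM with KOH (log2 fold change 0.53 ± 0.17 and 0.99 ± 0.26 SE, adjusted p = 0.0148 and 0.00388). CPP2 overlaps the annotated gene YDR209C. The calls of CPP2 and MNC1 were lost without KOH replicate 1 (0.15 and 0.65, adjusted p = 0.615 and 0.198), without YPD replicate 2 (0.39 and 0.66, adjusted p = 0.163 and 0.0645) and with the length correction (-0.16 and 0.23, adjusted p = 0.347 and 0.392).

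Genes of phosphate and polyphosphate metabolism were called lower more often than higher, 13 of 27 (48.1%) against 2 (1 without KOH replicate 1), with a median of -0.36. The falls included the VTC complex. VTC2 stood at 459 and 487 CPM in YPD and 239 and 261 CPM with KOH, VTC3 at 783 and 687 CPM in YPD and 441 and 401 CPM with KOH and VTC4, the catalytic subunit, at 533 and 662 CPM in YPD and 292 and 340.3 CPM with KOH (log2 fold change -0.93 ± 0.13, -0.80 ± 0.13 and -0.92 ± 0.14 SE, adjusted p = 1.41e-05, 6.55e-05 and 2.65e-05). VTC5 fell as well (-0.84 ± 0.15 SE, adjusted p = 0.000108), and VTC1 was at -0.55 ± 0.16 SE (adjusted p = 0.00879), a call lost without KOH replicate 2 (-0.28, adjusted p = 0.0917) or YPD replicate 2 (-0.34, adjusted p = 0.191), and at -0.96 with the length correction. Of the polyphosphatases other than PPN2, PPX1 stood at 185 and 157 CPM in YPD and 156 and 133 CPM with KOH (log2 fold change -0.24 ± 0.13 SE, adjusted p = 0.131). PIC2, a mitochondrial carrier of phosphate and copper, was the member that rose most firmly, from 287 and 293 to 541 and 644 CPM (log2 fold change 1.02 ± 0.12 SE, adjusted p = 1.41e-06).

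The PHO regulon, which Pho4 activates when phosphate is scarce, shares members such as the VTC genes with this list. The list counted for it also holds PHO3 and CBF1, so it is not limited to genes that Pho4 activates. That list gave 5 rises (20% against 29.2% of all genes) and 12 falls (48% against 25.5%) among 25 genes. PHO84, the high-affinity phosphate carrier that is its classical target, stood at 1328 and 1778 CPM in YPD and 1241 and 1595 CPM with KOH (log2 fold change -0.13 ± 0.15 SE, adjusted p = 0.473). PHO89, the sodium-coupled carrier that works at alkaline pH, stood at 89.7 and 123 CPM in YPD and 108 and 119 CPM with KOH (log2 fold change 0.10 ± 0.16 SE, adjusted p = 0.622), and the acid phosphatase gene PHO5 at 291 and 315 CPM in YPD and 406 and 432 CPM with KOH (log2 fold change 0.47 ± 0.14 SE, adjusted p = 0.00739, and 0.0963 without YPD replicate 2). PHM6 stood at 25.5 and 19.8 CPM in YPD and 32.9 and 16.6 CPM with KOH (log2 fold change 0.23 ± 0.25 SE, adjusted p = 0.458). The vacuolar transporter PHO91 stood at 66.6 and 108 CPM in YPD and 123 and 97.2 CPM with KOH (log2 fold change 0.43 ± 0.18 SE, adjusted p = 0.057). None of PHO84, PHO89, PHO91 and PHM6 moved beyond what the test could separate. Larger rises were found in the same list: GDE1, a glycerophosphodiesterase, from 72.5 and 81 to 257 and 357 CPM (log2 fold change 1.98 ± 0.13 SE, adjusted p = 1.47e-09), and PHM7 from 5.52 and 9.22 to 41.1 and 46.2 CPM (log2 fold change 2.60 ± 0.25 SE, adjusted p = 1.08e-07). PHM7 passed the filter on low counts only through the CRN/PPN2 (+KOH) libraries. PHO4 itself fell from 42.9 and 58.3 to 17.1 and 23.7 CPM (log2 fold change -1.33 ± 0.22 SE, adjusted p = 6.45e-05).

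INO1 belongs to the phospholipid pathway, in which 12 of 25 genes rose and 4 fell, with a median of 0.31. ITR1, the inositol permease, stood at 584 and 598 CPM in YPD and 2029 and 2673 CPM with KOH (log2 fold change 1.98 ± 0.14 SE, adjusted p = 2.66e-09). OPI3 and CHO2, the methyltransferases that make phosphatidylcholine, rose from 216 and 267 to 671 and 774 CPM and from 484 and 562 to 888 and 1069.5 CPM (log2 fold change 1.59 ± 0.13 and 0.90 ± 0.14 SE, adjusted p = 1.86e-08 and 4.12e-05). Genes of this pathway share the element UASINO, bound by Ino2 and Ino4 and searched here as CATGTGAA on both strands, which 11 of the 25 windows held (44%) against 79 of 5327 (1.48%). The window of OPI3 held none. The sites printed here, with the motif or its reverse complement in capitals, lie at chrX:136097-136122, strand - for INO1, at chrIV:1445672-1445697, strand - for ITR1 and at chrVII:802164-802189, strand + for CHO2.
INO1: cttatttaaTTCACATGgagcagaga
ITR1: tccccaccgCATGTGAAaaaagctcg
CHO2: ttcccttctCATGTGAAgagttcaca
PCT1, of the alternative route through choline, fell from 127 and 121 to 64.5 and 43.9 CPM (log2 fold change -1.15 ± 0.17 SE, adjusted p = 1.8e-05), and ELO1, a fatty acid elongase, from 248 and 226 to 86 and 110.3 CPM (log2 fold change -1.31 ± 0.15 SE, adjusted p = 1.33e-06). In ergosterol synthesis 13 of 26 genes fell and 1 rose (0 without KOH replicate 1 or YPD replicate 1), with a median of -0.35. The falls included ERG12, the mevalonate kinase (-1.11 ± 0.14 SE, adjusted p = 2.24e-06), and ERG1, the squalene epoxidase (-1.07 ± 0.13 SE, adjusted p = 3.38e-06).

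Amino acid synthesis held the largest falls. Of 66 genes, 53 fell (80.3% against 25.5% of all genes) and 3 rose, with a median of -0.75. The first members are of the arginine pathway. ARG3, the ornithine carbamoyltransferase, stood at 401 and 472 CPM in YPD and 34.2 and 36.8 CPM with KOH (log2 fold change -3.61 ± 0.16 SE, adjusted p = 7.05e-12). ARG1, the argininosuccinate synthetase, stood at 882 and 1179 CPM in YPD and 122 and 187 CPM with KOH (log2 fold change -2.76 ± 0.15 SE, adjusted p = 6.52e-11), and ARG8, the acetylornithine aminotransferase, at 304 and 376 CPM in YPD and 58.8 and 62.8 CPM with KOH (log2 fold change -2.46 ± 0.15 SE, adjusted p = 3.03e-10). HIS4, of histidine synthesis, fell from 1000.1 and 1210.0 to 301 and 378 CPM (log2 fold change -1.71 ± 0.13 SE, adjusted p = 1e-08). In CRN 48 of the 66 were called lower, with a median of -0.68 and with ARG3 at -2.53. Gcn4 activates these genes through the core TGACTC, which 46 of the 66 windows held (69.7%) against 652 of 5327 (12.2%), each searched on both strands. The sites nearest to the coding start, with the core or its reverse complement in capitals, lie at chrX:268476-268499, strand + for ARG3, at chrXV:218928-218951, strand + for ARG1 and at chrXV:58570-58593, strand + for ARG8.
ARG3: gtcacgtcgTGACTCatatgcttt
ARG1: cgtatggaaGAGTCAtttaaaggc
ARG8: ctcgctatgTGACTCacttaaagt

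Purine and one-carbon genes fell in both strains. In CRN/PPN2 18 of 22 fell and 1 rose (0 without KOH replicate 1 or either YPD library), with a median of -0.76, and in CRN 17 fell, with a median of -1.87. The glycine decarboxylase gene GCV2 stood at 854 and 1134 CPM in YPD and 252 and 286 CPM with KOH in CRN/PPN2 and at 965 and 1242 CPM in YPD and 43.8 and 53.9 CPM with KOH in CRN. Its log2 fold change was -1.87 ± 0.14 SE in CRN/PPN2 and -4.49 in CRN, and the difference of 2.62 ± 0.19 SE passed the test (adjusted p = 3.22e-08). GCV1, of the same complex, gave -1.72 and -4.36 (difference 2.64 ± 0.21 SE, adjusted p = 5.94e-08). Over the list the difference was called above 0 for 16 of 22 genes and below 0 for 2, against 22.2% and 17.6% of all genes.

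Metal and sulfur genes changed in both directions. In the iron regulon 48.1% of the tested genes were called higher and 11.1% lower, against 29.2% and 25.5% of all genes. Among 27 tested genes of the iron regulon 13 rose and 3 fell (1 without KOH replicate 1 or YPD replicate 1 and 6 without KOH replicate 2), with a median of 0.33. FIT3, a wall protein that retains siderophore iron, stood at 7.76 and 11.6 CPM in YPD and 60.1 and 58.1 CPM with KOH (log2 fold change 2.66 ± 0.23 SE, adjusted p = 3.49e-08), and ARN2, a siderophore transporter, at 41.5 and 33.4 CPM in YPD and 82.9 and 101 CPM with KOH (log2 fold change 1.27 ± 0.17 SE, adjusted p = 6.73e-06). For copper and zinc 6 of 17 rose (35.3%) and 7 fell (41.2%, and 4 without KOH replicate 1 or YPD replicate 1 and 3 without YPD replicate 2). ZPS1, a wall protein induced when zinc is short, rose from 10.4 and 10.8 to 174 and 267 CPM (log2 fold change 4.34 ± 0.18 SE, adjusted p = 3.33e-12), whereas CUP2, the copper-sensing activator of metallothionein, fell from 61.3 and 38.8 to 11.4 and 20.2 CPM (log2 fold change -1.80 ± 0.29 SE, adjusted p = 4.87e-05). Of 28 genes of sulfate assimilation and methionine 6 rose (21.4%) and 7 fell (25%), but MET32, a DNA-binding regulator of the pathway, stood at 9.19 and 9.81 CPM in YPD and 120.2 and 122 CPM with KOH (log2 fold change 3.66 ± 0.18 SE, adjusted p = 3.48e-11) and MUP3, a methionine permease, at 11.6 and 12.9 CPM in YPD and 38.6 and 55.7 CPM with KOH (log2 fold change 1.91 ± 0.22 SE, adjusted p = 1.04e-06). Of the amino acid permeases, 11 of 24 genes fell and 4 rose, 2 of which passed the filter only through the KOH libraries, and admitted by the CRN libraries 9 of 22 fell and 2 rose. OPT2, of the oligopeptide transporter family, fell from 184 and 178 to 38.6 and 41.5 CPM (log2 fold change -2.20 ± 0.16 SE, adjusted p = 3.91e-09). Among 31 nitrogen catabolite genes 8 rose (5 without KOH replicate 2 or YPD replicate 2) and 12 fell, and admitted by the CRN libraries 5 of 28 rose and 11 fell. DAL4, the allantoin permease, rose from 5.31 and 6.87 to 54.4 and 84.2 CPM (log2 fold change 3.48 ± 0.22 SE, adjusted p = 7.42e-10).

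Most genes of glycolysis and fermentation fell. Of 21 tested genes 19 were called lower (90.5%) and 0 higher (1 without KOH replicate 2 or YPD replicate 2), with a median of -0.82, and the count of falls was between 14 and 19 when any one of the 4 libraries was left out. PGK1, the phosphoglycerate kinase, stood at 7944 and 9393 CPM in YPD and 3828 and 4463 CPM with KOH (log2 fold change -1.06 ± 0.14 SE, adjusted p = 6.02e-06), and GPM1, the phosphoglycerate mutase, at 8597 and 8274 CPM in YPD and 4064 and 4244 CPM with KOH (log2 fold change -1.02 ± 0.14 SE, adjusted p = 8.79e-06). PFK2, a phosphofructokinase subunit, fell from 679 and 820.4 to 334 and 343 CPM (log2 fold change -1.14 ± 0.14 SE, adjusted p = 1.78e-06), and ALD6, the main cytosolic acetaldehyde dehydrogenase, from 326 and 345 to 127 and 149 CPM (log2 fold change -1.29 ± 0.14 SE, adjusted p = 6.58e-07). In the tricarboxylic acid cycle 10 of 20 genes fell and 3 rose. The citrate synthase genes CIT1 and CIT3 went the other way, with log2 fold changes of 1.25 ± 0.16 and 2.36 ± 0.27 SE (adjusted p = 3.74e-06 and 1.25e-06). Among 43 nuclear genes of the respiratory chain and ATP synthase 13 rose (30.2%) and 16 fell (37.2%, and 10 without YPD replicate 2). CYC7, the cytochrome c isoform of low oxygen, stood at 144 and 122 CPM in YPD and 671 and 589 CPM with KOH (log2 fold change 2.24 ± 0.13 SE, adjusted p = 2.25e-10), and COR1, a core subunit of complex III, at 215 and 227 CPM in YPD and 104 and 103 CPM with KOH (log2 fold change -1.09 ± 0.13 SE, adjusted p = 2.95e-06). Many genes of this group are short, and with the length correction its counts were 7 and 22 and its median moved from 0.26 to -0.30.

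**Figure D3:**
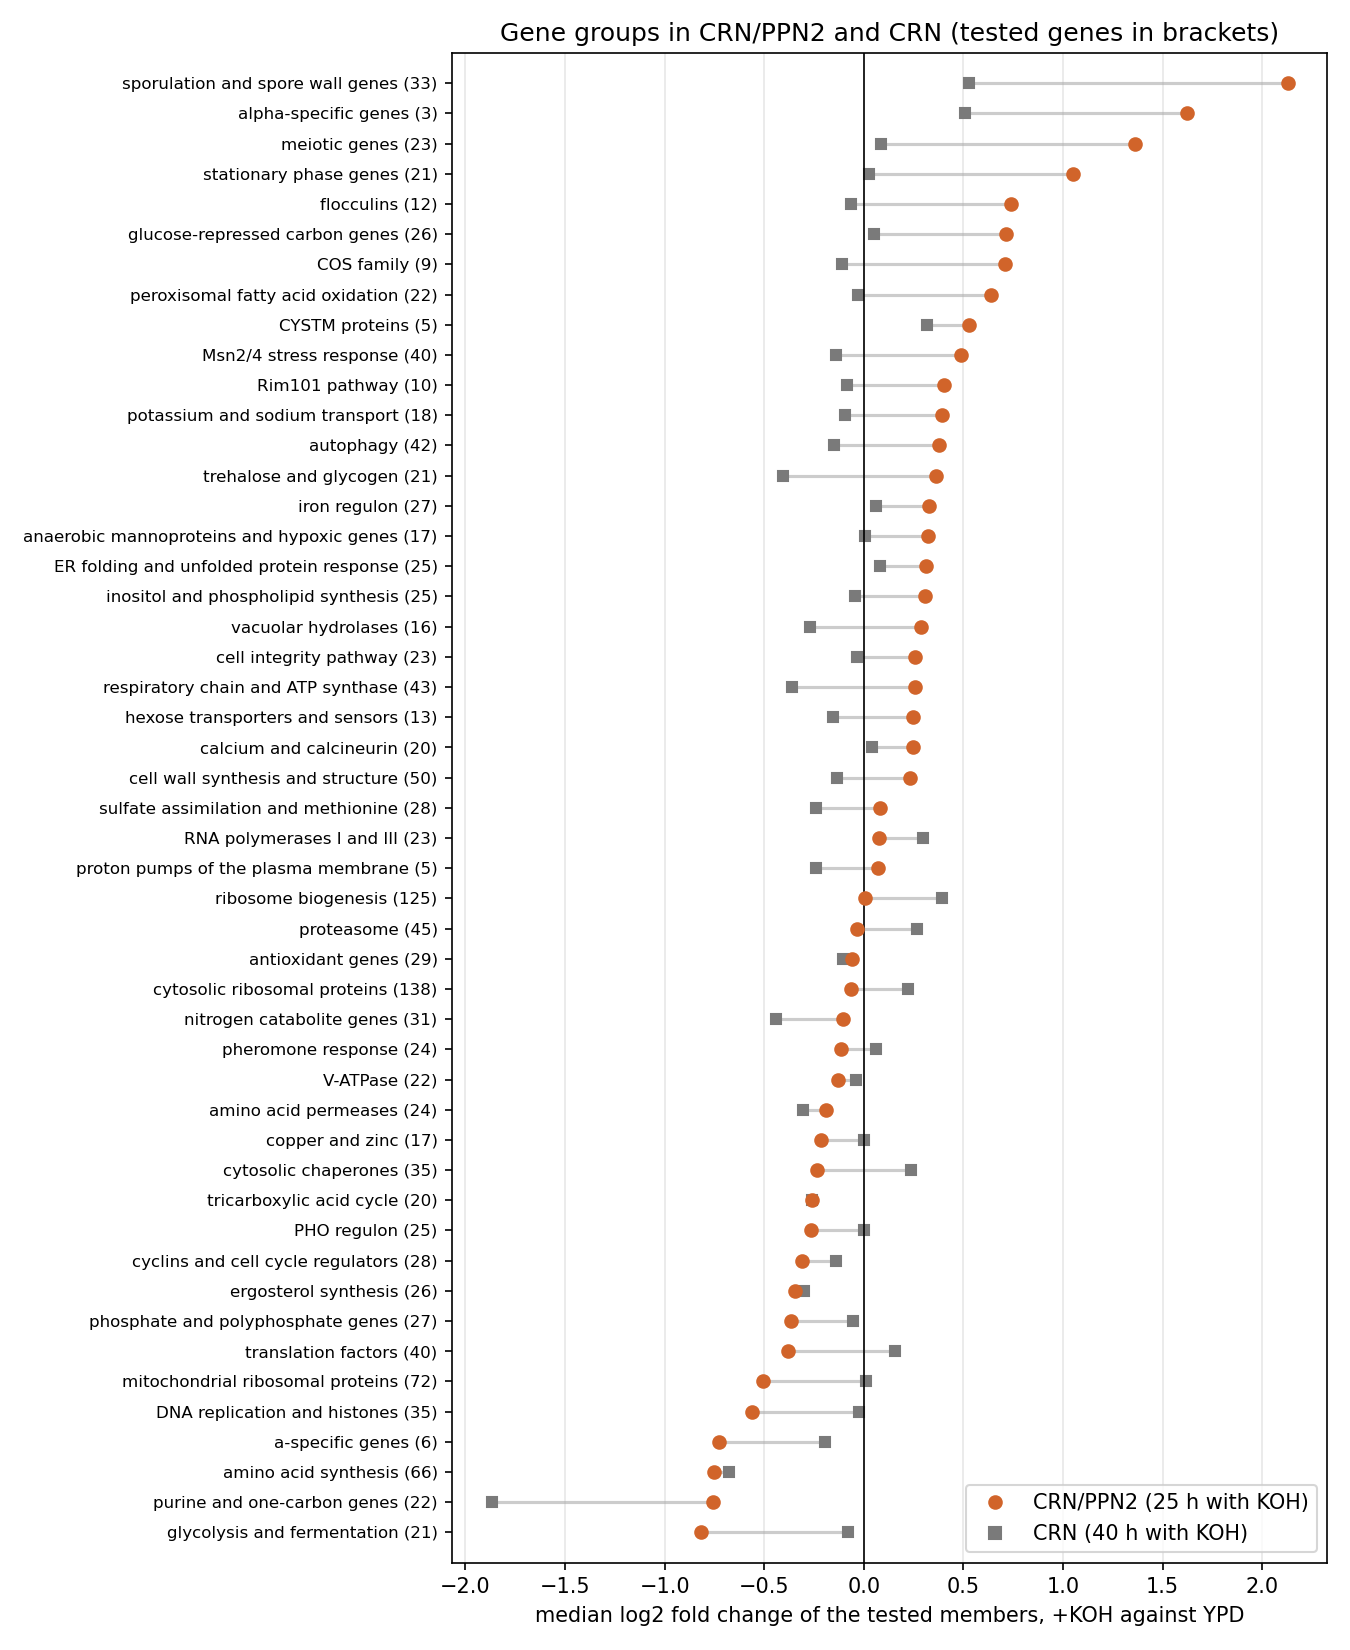
Median log2 fold change of KOH against YPD over the tested members of each gene group (number in brackets), for CRN/PPN2 (orange circles) and CRN (grey squares). The median of spore formation genes was 2.13 in CRN/PPN2 and 0.53 in CRN, and that of glycolysis -0.82 and -0.08. The medians cover the members that passed the filter, and 17 of the 33 spore formation genes passed it only through the KOH libraries of CRN/PPN2 (median 1.07 over the 14 admitted by the CRN libraries).

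Among genes of translation, those of mitochondrial ribosomes were mostly lower. Of the 72, 40 fell (55.6%) and 6 rose (0 without KOH replicate 1 and 11 without KOH replicate 2), with a median of -0.50. Of the 72, 25 are short, and with the length correction 1 rose and 51 fell, with a median of -0.60. MRPS9 and MRP4, of the small subunit, fell from 381 and 319.6 to 178 and 180.2 CPM and from 116 and 145 to 58.8 and 40.3 CPM (log2 fold change -0.97 ± 0.13 and -1.30 ± 0.18 SE, adjusted p = 8.16e-06 and 8.91e-06). Of 40 translation factor genes 21 fell (13 without YPD replicate 2) and 8 rose. DED1, the initiation helicase, stood at 239 and 208 CPM in YPD and 91.1 and 86.6 CPM with KOH (log2 fold change -1.33 ± 0.14 SE, adjusted p = 4.81e-07), and SUI1, the initiation factor eIF1, at 326 and 262 CPM in YPD and 899 and 717 CPM with KOH (log2 fold change 1.46 ± 0.14 SE, adjusted p = 8.89e-08).

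For the 138 cytosolic ribosomal protein genes the data gave no common direction. Rises numbered 39 and falls 40, with a median of -0.07, but the falls became 72 without KOH replicate 1 and the rises 62 without KOH replicate 2 and 24 without YPD replicate 1. With the length correction 16 rose and 74 fell, with a median of -0.33. RPL39, of 156 coding bases, stood at 1423 and 1181 CPM in YPD and 3490.3 and 3588 CPM with KOH (log2 fold change 1.45 ± 0.14 SE, adjusted p = 1.77e-07, and 0.62 with the length correction). ASC1, the ribosome-bound scaffold protein, stood at 4031 and 3251 CPM in YPD and 1318 and 1601 CPM with KOH (log2 fold change -1.32 ± 0.15 SE, adjusted p = 1.57e-06). Ribosome assembly genes were likewise even, 34 higher and 33 lower of 125, with LOC1, of large subunit export and assembly, at 179.8 and 144 CPM in YPD and 645 and 554 CPM with KOH (log2 fold change 1.89 ± 0.13 SE, adjusted p = 1.75e-09). RNA polymerase I and III genes gave 8 rises (3 without KOH replicate 1 and 5 without YPD replicate 1) and 5 falls among 23, 34.8% and 21.7%.

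Genes of cell division were called lower more often than higher. Of 35 genes of DNA replication and histones 20 fell and 3 rose (5 without YPD replicate 2), with a median of -0.56. RNR1, the large subunit of ribonucleotide reductase, stood at 245 and 291 CPM in YPD and 113 and 123 CPM with KOH (log2 fold change -1.17 ± 0.13 SE, adjusted p = 9.74e-07), and the histone gene HTB2 at 398 and 373 CPM in YPD and 157 and 102 CPM with KOH (log2 fold change -1.53 ± 0.18 SE, adjusted p = 1.68e-06). MCM2, of the replicative helicase, was an exception and rose from 62.7 and 62.6 to 159 and 204 CPM (log2 fold change 1.51 ± 0.14 SE, adjusted p = 8.3e-08). Among 28 cyclins and cell cycle regulators 5 rose (3 without YPD replicate 1) and 11 fell, with CLB1, a mitotic cyclin, at 358 and 308 CPM in YPD and 157 and 83 CPM with KOH (log2 fold change -1.44 ± 0.16 SE, adjusted p = 9.27e-07). With all libraries, 17.9% of the cyclins and regulators were called higher and 39.3% lower, against 29.2% and 25.5% of all genes. HO, the mating type switching endonuclease, fell from 85 and 70.6 to 21.5 and 20.2 CPM (log2 fold change -1.90 ± 0.20 SE, adjusted p = 3.81e-07).

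Markers of cell type were mainly those of MATa cells. The tested a-specific genes summed to 1386 and 1440 CPM in YPD and 967 and 707 CPM with KOH. The tested alpha-specific genes summed to 22.5 and 28.1 CPM in YPD and 67.1 and 81.8 CPM with KOH. The alpha genes of the mating type loci had 0 counts in all CRN/PPN2 libraries apart from 1 HMLALPHA2 count with KOH. They are annotated at both MAT and HML, and reads shared by such copies may not have been counted, so these counts do not decide the cell type. The a-specific genes were present but 4 of 6 were called lower (6 with the length correction) and 0 higher (1 without KOH replicate 2). STE6, the exporter of a-factor, stood at 268 and 284 CPM in YPD and 138 and 133 CPM with KOH (log2 fold change -1.03 ± 0.14 SE, adjusted p = 5.76e-06). The 3 alpha-specific genes tested were called higher, and 2 of them passed the filter only through the KOH libraries. SAG1, the α-agglutinin, stood at 15.9 and 22.6 CPM in YPD and 37.3 and 43.9 CPM with KOH (log2 fold change 1.08 ± 0.24 SE, adjusted p = 0.00113), and MF(ALPHA)1, which encodes α-factor, had 4 and 5 counts in YPD and 25 and 16 with KOH, a ratio of 18.8 with a counting interval of 8.99 to 43.9. Pheromone response genes were called higher in 41.7% and lower in 33.3%, against 29.2% and 25.5% of all genes. Of 24 genes of the pheromone response 10 rose, 2 of which passed the filter only through the KOH libraries, and 8 fell (4 without KOH replicate 1), with PRM5, a pheromone-regulated membrane protein also induced by wall stress, at 95.2 and 98.9 CPM in YPD and 283 and 398 CPM with KOH (log2 fold change 1.79 ± 0.14 SE, adjusted p = 1.19e-08).

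Of the groups not yet described, the proteasome gave 12 rises (26.7%, below the 29.2% of all genes) and 6 falls (13.3% against 25.5%, with 2 falls without YPD replicate 1 and 9 with the length correction) among 45 genes, with RPN4, its activator, at 1.15 ± 0.15 SE (adjusted p = 4.39e-06). Cytosolic chaperones gave 10 and 14 among 35 (28.6% and 40%), with HSP82, an Hsp90, at 1.30 ± 0.12 SE (adjusted p = 1.21e-07) and the chaperonin subunit CCT6 at -1.18 ± 0.14 SE (adjusted p = 1.65e-06). Antioxidant genes gave 9 and 7 among 29 (31% and 24.1%), and 7 and 10 with the length correction. GRX1, a glutaredoxin, rose from 391 and 323 to 1137 and 915 CPM (log2 fold change 1.52 ± 0.13 SE, adjusted p = 2.63e-08), and TRR1, the thioredoxin reductase, fell from 606 and 568 to 282 and 292 CPM (log2 fold change -1.04 ± 0.13 SE, adjusted p = 3.38e-06). Hexose transporters and sensors gave 6 rises and 3 falls among 13 (1 fall without either YPD library), and admitted by the CRN libraries 4 of 11 rose and 2 fell. The high-affinity transporter genes HXT6 and HXT7 rose by 0.99 ± 0.13 and 0.99 ± 0.13 SE (adjusted p = 7.75e-06 and 4.17e-06), but 95.7% of their 31-base windows recur in the genome and they cannot be counted apart. HXT4, of moderate affinity, fell from 319.7 and 313 to 168 and 169.6 CPM (log2 fold change -0.90 ± 0.13 SE, adjusted p = 1.5e-05). Hypoxic genes gave 6 and 2 among 17 (1 fall without YPD replicate 2), and 4 and 2 among the 14 admitted by the CRN libraries, and ROX1, their repressor, fell from 78 and 101 to 38.6 and 47.4 CPM (log2 fold change -1.06 ± 0.17 SE, adjusted p = 3.99e-05). None of the mitochondrially encoded genes was tested, since their counts summed to 0 or 1 per library.

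The same comparison in CRN gave fewer calls, 409 higher (7.53%) and 413 lower (7.61%), and the test of the difference between the strains called 2156 genes (39.7%), 1203 above 0 (22.2%) and 953 below 0 (17.6%). The strains were compared after 25 h and 40 h with KOH and after different lysis, so strain, time and lysis cannot be told apart in this difference. Genes called in both strains numbered 541, which was 18.2% of the calls in CRN/PPN2 and 65.8% of those in CRN. Of these, 439 had the same direction, 228 higher and 211 lower, and 102 the opposite.

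Among genes whose effect was larger in CRN/PPN2, YNR065C reached 4.89 against 0.85 in CRN (difference 4.04 ± 0.20 SE, adjusted p = 3.97e-10) and YCR099C 5.15 against 1.21 (3.94 ± 0.23 SE, adjusted p = 4.05e-09). INO1 rose in both strains, by 6.36 and 1.55 (difference 4.81 ± 0.37 SE, adjusted p = 4.48e-08), as did CPP3, by 6.79 and 3.56 (3.23 ± 0.49 SE, adjusted p = 8.48e-05). BNR1 and MET32 were called in CRN/PPN2 and stood at 0.34 and 0.05 in CRN (difference 2.75 ± 0.19 and 3.61 ± 0.28 SE, adjusted p = 1.56e-08 and 5.43e-08). These were genes that rose in CRN/PPN2. SNZ1, of vitamin B6 synthesis, was instead set apart by its fall in CRN. It stood at 558 and 471 CPM in YPD and 874 and 894 CPM with KOH in CRN/PPN2 and fell from 534 and 561 to 66.2 and 55.7 CPM in CRN, a difference of 3.96 ± 0.20 SE (adjusted p = 3.97e-10). MTD1, a one-carbon dehydrogenase, and SSU1, the sulfite pump, gave -0.14 and 0.69 in CRN/PPN2 against -3.07 and -2.35 in CRN (difference 2.93 ± 0.18 and 3.04 ± 0.20 SE, adjusted p = 6.13e-09 and 8.26e-09).

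In the other direction, ALD6 stood at 326 and 345 CPM in YPD and 127 and 149 CPM with KOH in CRN/PPN2 and at 540.3 and 593 CPM in YPD and 1173 and 1271 CPM with KOH in CRN, so that it fell in the former and rose in the latter (difference -2.40 ± 0.19 SE, adjusted p = 5.11e-08). HXT2, a high-affinity glucose transporter, was at -0.25 in CRN/PPN2 and rose by 1.75 in CRN (difference -2.00 ± 0.19 SE, adjusted p = 4.1e-07). GPD2, of glycerol synthesis, and NOG2, a GTPase of ribosome assembly, stood at -1.64 and -1.21 in CRN/PPN2 and at 0.31 and 0.56 in CRN (difference -1.96 ± 0.20 and -1.77 ± 0.19 SE, adjusted p = 9.82e-07 and 2.85e-06). Ribosome assembly genes as a list were called higher for 66 of 125 in CRN, with a median of 0.39, and the difference was below 0 for 54 and above 0 for 8. Stress genes under Msn2 and Msn4 went the other way, with 2 higher and 12 lower of 40 in CRN and a difference above 0 for 20 and below 0 for 3. FLO11 rose in CRN from 11.6 and 13.5 to 91.7 and 123 CPM, and its difference of -3.22 ± 0.52 SE passed the test (adjusted p = 0.000132).

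**Figure D4:**
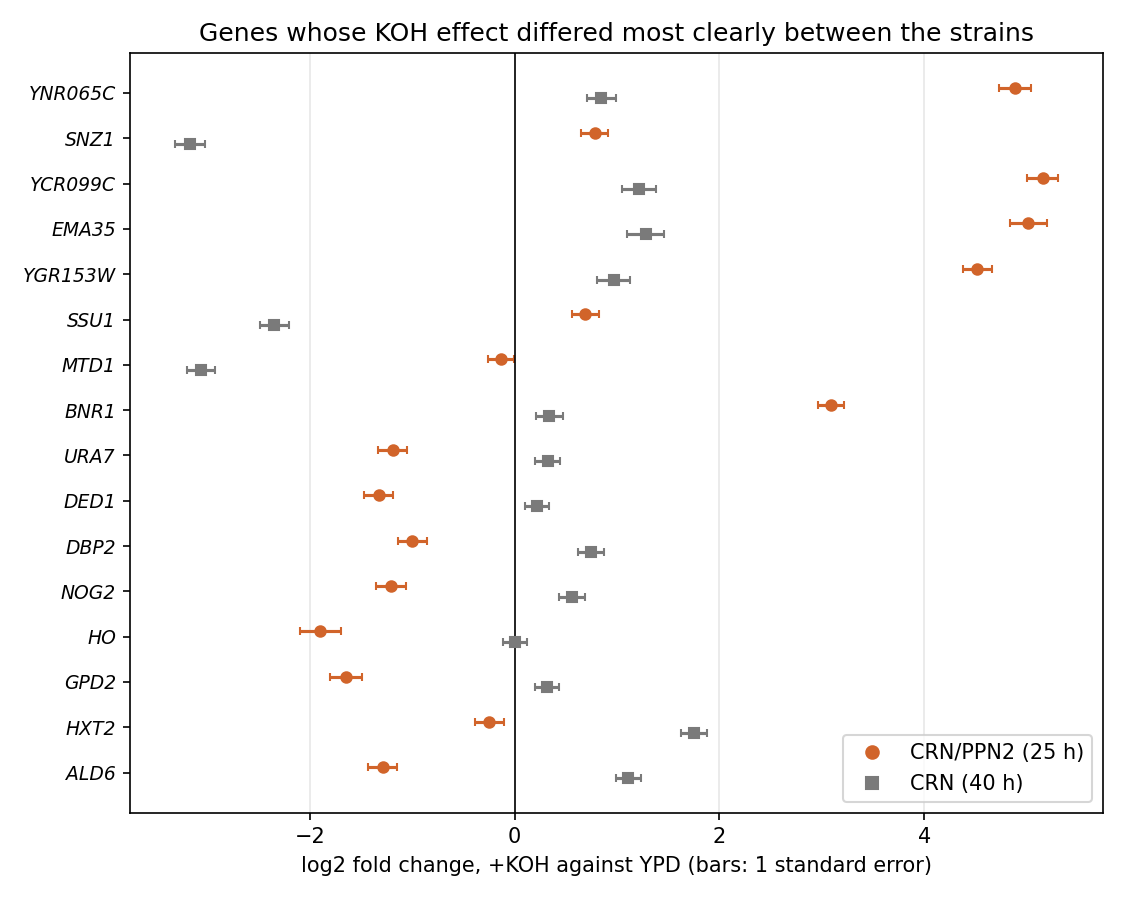
Log2 fold change of KOH against YPD in CRN/PPN2 (orange circles) and CRN (grey squares), with bars of 1 standard error, for the 8 genes in each direction whose difference between strains had the smallest adjusted p. YNR065C lies at 4.89 in CRN/PPN2 and 0.85 in CRN, and ALD6 at -1.29 and 1.11.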

How the data were processed

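Poly(A) RNA was sequenced as 8 libraries with a strand-preserving NEBNext kit on an Illumina NextSeq 500. According to the study's methods and the labels, the authors aligned the reads with STAR 2.7.6a to the R64 genome and deposited the raw gene counts of STAR (the strand setting is not given in the sources used here), 1 column per library, with no normalization.

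From these deposited counts, a gene was kept where 2 or more of the 8 libraries reached 10 CPM (5430 of 7127). Testing was done with edgeR 4.0.16 in R 4.3.3 (TMM factors, quasi-likelihood test, all 8 libraries with group and replicate as terms), with Benjamini-Hochberg adjustment over all 5430 genes and a threshold of 0.05. All p-values in the text are from this test unless another is named. Fold changes are log2 values as edgeR fits them, which pulls those of low genes towards 0, and their SE is approximate, taken from the fold change and the square root of its F statistic. The difference between the strains is an interaction contrast in the same fit. The test was tried on simulated data first.

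Replicate numbers name the preparation and sequencing batches in the study's methods, and the deviations of same-numbered libraries correlated in every pair of groups (r from 0.099 to 0.504, and 0.277 for CRN/PPN2 in YPD and with KOH), so the number was kept as a block.

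The gene lists and the members named were chosen with earlier results of these data known. Named genes are the 12 largest rises and falls called, genes the study names, up to 6 members of each list with the smallest adjusted p (all members of lists of up to 12 genes), the 8 genes with the smallest adjusted p for the difference in each direction, and strain and mating type markers. Not every gene these rules give is described, and 1 is not reported here. Coding lengths, positions, 31-base repeats and motif windows came from the RefSeq annotation and genome of R64, and 5327 tested genes matched. Motif distances run from the coding start to the nearest base of the motif. Counting intervals are exact binomial at 95%.

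Alternatives were no block, the 4 CRN/PPN2 libraries alone, ComBat-seq (sva 3.50.0), DESeq2 1.42.0, other scaling factors and filters, thinning to 796548 counts per library, leaving out each library and, chosen after seeing the data, corrections for coding length and GC content, a filter on the CRN libraries only and leaving out both CRN (+KOH) libraries.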

Additional observations from a re-analysis of the deposited data

Results flagged for a closer look

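The effect of KOH was tested for a difference between CRN/PPN2 and CRN, and 2156 genes passed (39.7% of those tested). The values below are CRN/PPN2 minus CRN on the log2 scale, each with an adjusted p under 0.05 in edgeR's quasi-likelihood test and each from libraries that differ in culture time and lysis as well as in strain.

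The difference was above 0 for INO1 (4.81), YNR065C (4.04), SNZ1 (3.96), YCR099C (3.94), MUP3 (3.89), EMA35 (3.74), MET32 (3.61), YGR153W (3.55), ECM8 (3.47), CPP3 (3.23), YOL160W (3.16), SSU1 (3.04), MTD1 (2.93), BNR1 (2.75), GCV1 (2.64), GCV2 (2.62), CYC7 (2.51), ADH2 (2.04), GSC2 (1.99), HSP12 (1.71), PIC2 (1.69), RIM21 (1.49), ADE2 (1.34) and TRK1 (1.31). In these genes the log2 fold change was higher in CRN/PPN2 than in CRN, whether it was a larger rise, a smaller fall or, as in SNZ1, a rise against a fall.

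The difference was below 0 for FLO11 (-3.22), ALD6 (-2.40), HXT2 (-2.00), GPD2 (-1.96), HO (-1.90), NOG2 (-1.77), DBP2 (-1.74), ASC1 (-1.67), DED1 (-1.55), URA7 (-1.51), PGK1 (-0.98) and VTC3 (-0.97).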

How the results depend on the processing

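Without the replicate block 1392 genes were called higher and 1165 lower, and 1497 differed between the strains. The count over all genes that moved by more than 1.5 times was that of genes differing between the strains, 1245 after thinning every library to 796548 counts instead of 2156. Leaving out 1 library in turn gave 1261 to 1521 genes higher, 1037 to 1375 lower, and 1473 to 2317 that differed between the strains. DESeq2 called 1394 genes higher and 1186 lower, and ComBat-seq counts gave 1658 and 1543. Upper quartile factors moved the median of all genes from -0.01 to -0.11 and gave 1371 higher and 1691 lower. Without a filter 49.1% of the calls were higher, against 53.4%. The correction for coding length gave 1400 and 1603, and the filter on the CRN libraries 1485 and 1256, both chosen after seeing the data.

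Among named genes, those whose direction turned with a call before or after the change were short, while uncalled long genes such as FLO11 (-0.78 to 0.45) and PHO91 (-0.09 to 0.78) changed sign when 1 library was left out. With the length correction the log2 fold change was -0.16 for CPP2, -0.95 for PMP1, -0.86 for PMP2 and -0.96 for MFA2, and the difference between strains was -0.56 for PMP1, -0.52 for PMP2 and -0.86 for MFA1. For MFA2 the fold change was -1.08 without KOH replicate 1 and 0.66 without KOH replicate 2, and the difference -0.84 and 0.91. Summed over all alternatives, 98 values of the fold changes of named genes lost their call, 24 gained one, 5 reversed and 7344 did neither. The low depth of the KOH libraries, 1.26 CPM per read in the shallower, limits the precision of genes of few reads.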
